A study of Rattus norvegicus with 93 samples.

Results

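The data described here are the 8 mm defects in the roof of the rat skull at day 7, set against 8 mm defects at day 5. They were chosen by the sample titles alone, as every array titled 8 mm and day 7 or day 5, which gave 17 of the 93 arrays of the study. There were 5 arrays at day 7 and 12 at day 5, and each array held the RNA of 1 defect of 1 male rat aged 12 weeks. The strain is not given in the labels. A disc of bone 8 mm across was drilled out under saline with a trephine, the dura mater below it stayed in place, and the wound was closed with no further treatment. The healing tissue was cut out with a trephine of that diameter, and the labels do not say how far neighbouring bone, dura, muscle or brain was kept out. The study calls the 8 mm hole a critical-size defect and also made 4 mm holes below that size, of which 5 arrays at day 7 and 11 at day 5 are used for a comparison of sizes. Unoperated bone was not analysed here. Rat numbers recur at different days and in both defect sizes. The labels do not say whether arrays with the same number had anything in common.

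By the end of the first week a hole in the skull is filled with granulation tissue, a mesh of new vessels, macrophages, fibroblasts and contractile myofibroblasts laid down in a fibrin clot. Cells in it divide, make collagen and are later replaced by bone-forming cells from the rim and the dura, which enter through a stage of collagen matrix before they mineralise it. In a critical-size hole this filling with bone stays incomplete, and fibrous tissue remains in the middle.

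All levels below are log2 of the deposited ratio, in which 0 is the median of most probes over the 93 arrays. A level thus says how a gene compares with its own median in the study and not how abundant its RNA was. The lowest deposited ratio was 0.01, a log2 level of -6.64, and is called the floor. Differences are day 7 minus day 5 on this log2 scale. Tests were made with limma, p-values were adjusted by Benjamini-Hochberg over 15975 genes, and genes with an adjusted p under 0.05 passed. For each gene 1 spread was pooled over all 93 arrays, in 14 groups of size and day. The p-values rest on that spread, which could differ between the days. For Cdk1 the SD was 2.25 at day 7 and 0.43 at day 5. With only the 17 arrays in the fit, 2082 genes passed, among them 876 of the 1027 that passed in the main fit. Each piece of tissue held many cell types, so fewer cells of a type and less RNA per cell cannot be told apart. The number of arrays limits the precision, so a gene that did not pass is not shown to be unchanged.

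Some arrays stood apart. The brain list, 14 measured genes of neurons, glia and myelin, had mean log2 scores of 4.41 and 4.89 on day 7 replicates 10 and 12 and 2.99 on day 5 replicate 17, while the other 3 day 7 arrays lay between -1.84 and -0.39. Day 7 replicate 13 had 17.1% of its values at the floor, against 10.06% to 10.71% on the day 5 arrays. The share at the floor averaged 11.88% ± 3.03 (SD, n = 5) at day 7 and 10.2% ± 0.21 (SD, n = 12) at day 5 (two-sided exact permutation p = 0.0406). Without day 7 replicate 13 or 15 that p was 0.138. The median level of probes never at the floor was -0.11 ± 0.26 (SD, n = 5) at day 7 and 0.13 ± 0.37 (SD, n = 12) at day 5 (two-sided exact permutation p = 0.212). Of the 67 named genes that passed, 46 still passed without the 3 arrays with brain scores above 2, and the 21 that did not are given with that value where they are described. The transcripts of bone matrix and mineral Col1a1, Spp1, Alpl, Ibsp, Bglap and Dmp1 were above the floor on all 17 arrays.

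The values of 27 genes of kinds known for abundant mRNA, among them Actb, Col1a1, Col3a1, Sparc and 15 genes named as ribosomal proteins, followed one and the same profile over the 17 arrays to within 0.05 on the log2 scale. That profile, relative to its median, was -0.25, -0.86, 1.55, 0.23 and 0.19 on day 7 replicates 10, 12, 13, 14 and 15. The genes were picked for following Col1a1 in this way, so near-equal differences between the days follow from the choice. The difference was 0.29 or 0.3 for each of the 27 genes, and 0 of them passed the test. For these genes the deposited values show 1 common array factor and no change of their own, so nothing can be said here of Col1a1 or Col3a1 as genes. The reason for the shared profile was not tested.

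**Figure D1:**
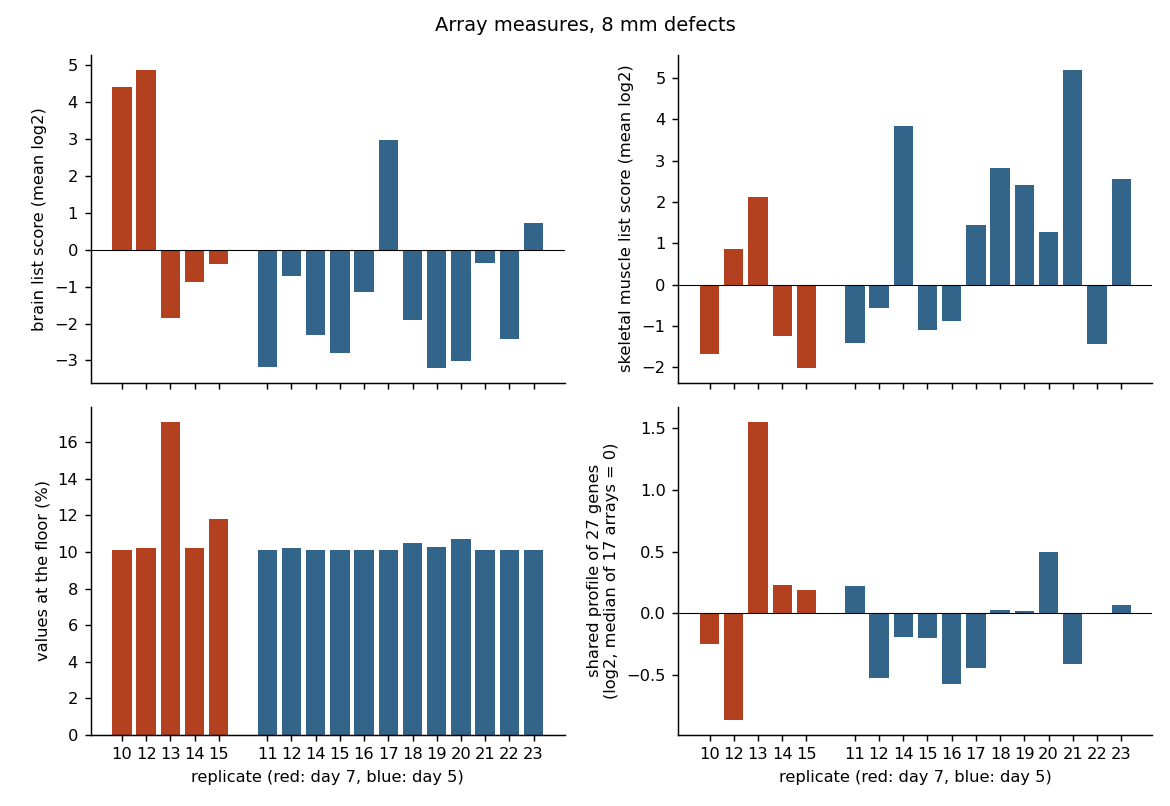
Bars give 4 measures of each array of the 8 mm defects, day 7 in red and day 5 in blue, by replicate number: the brain and skeletal muscle list scores (mean log2 level), the percentage of values at the floor, and the log2 profile shared by 27 abundant genes. Day 7 replicates 10 and 12 and day 5 replicate 17 have brain scores of 4.41, 4.89 and 2.99, and day 7 replicate 13 stands apart with 17.1% of values at the floor and 1.55 on the shared profile.

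At day 7 against day 5, 1027 of 15975 genes passed the test (6.43%), of which 287 were higher (1.8%) and 740 were lower (4.63%). The median difference of all genes was -0.33, and it was -0.09 after each array was centred on its median and -0.05 after quantile normalization. After centring 4.62% of genes were called higher and 8.08% lower, and after quantile normalization 7.16% higher and 8.21% lower. Higher genes made up 27.9% of the calls on the deposited scale, 36.4% after centring and 46.6% after quantile normalization, so the excess of lower genes depends in part on how the arrays are scaled. All 1027 genes kept their direction under both scalings, and 988 and 1000 of them still passed. Without day 7 replicate 13, 421 genes passed, and without day 7 replicate 14, 543. Without the 3 arrays with brain scores above 2, 821 passed (1.87% of genes higher and 3.27% lower), 587 of them from among the 1027. In 396 of the genes tested (2.48%) the arrays of the days did not overlap. Of these, 125 had all day 7 values above all day 5 values (0.782%) and 271 had all day 7 values below them (1.7%).

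The 33 gene lists used for description held 511 distinct measured genes, of which 34 passed (6.65%), 12 higher and 22 lower. This share was close to the 6.43% of all genes, so the lists as a whole did not stand out, and what follows concerns single genes and the direction of whole lists. The count of calls in each list stands against 1.8% of all genes called higher and 4.63% called lower. Among lists of 10 or more genes the lowest medians were those of skeletal muscle, contractile and pericyte, adipocyte and cell division genes, and the highest those of brain and meningeal genes.

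**Figure D2:**
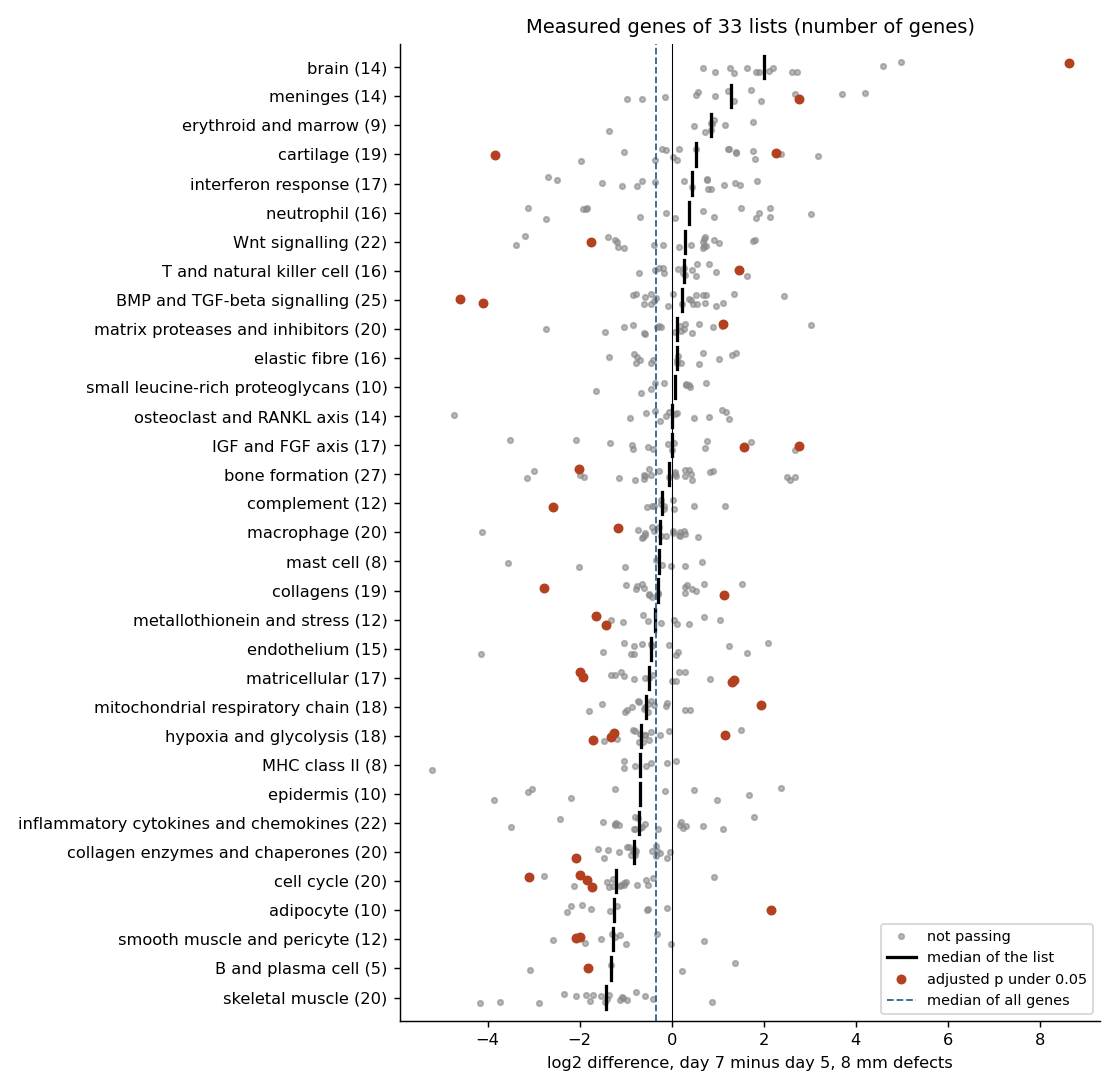
Each point is a measured gene of 1 of 33 lists, placed by its log2 difference, day 7 minus day 5, in 8 mm defects; red points passed the test, black bars are list medians and the dashed line is the median of all genes, -0.33. List medians run between -1.43 for skeletal muscle and 2.01 for brain, and most lists hold 0 to 2 genes that passed.

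Of 20 measured genes of cell division, 4 fell at day 7 (of all genes 4.63% fell) and 0 rose. In this list 19 genes had a negative difference, with a median of -1.20 against -0.33 for all genes. The 4 were the mitotic kinase gene Cdk1, its cyclin partner Ccnb1, the mitotic kinase gene Plk1 and the spindle checkpoint kinase gene Bub1. All 4 act at entry into mitosis or during it. Cells raise their mRNA late in the division cycle, in part through promoter elements that bind the DREAM complex and the factor NF-Y. Promoters of the 3 in which such letters were found are printed to show them (RefSeq, GRCr8, 250 bases before to 50 after the gene's start). Capitals mark TTTGAA, the core of the cell cycle homology element, and CCAAT, on either strand, so that CCAAT on the other strand reads ATTGG.
Cdk1, chr20:19265043-19265342, plus strand: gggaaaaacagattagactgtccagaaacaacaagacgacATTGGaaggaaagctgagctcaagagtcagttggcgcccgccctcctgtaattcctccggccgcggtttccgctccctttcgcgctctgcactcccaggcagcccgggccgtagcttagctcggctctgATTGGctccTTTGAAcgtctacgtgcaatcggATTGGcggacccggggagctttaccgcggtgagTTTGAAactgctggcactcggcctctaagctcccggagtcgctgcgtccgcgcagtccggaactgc
Ccnb1, chr2:33655176-33655475, minus strand: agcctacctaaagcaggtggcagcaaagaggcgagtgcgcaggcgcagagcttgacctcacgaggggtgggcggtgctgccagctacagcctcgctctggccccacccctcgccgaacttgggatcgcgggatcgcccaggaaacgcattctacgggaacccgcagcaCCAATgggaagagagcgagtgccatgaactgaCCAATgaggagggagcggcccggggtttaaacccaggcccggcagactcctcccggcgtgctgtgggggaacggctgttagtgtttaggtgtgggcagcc
Plk1, chr1:186147408-186147707, plus strand: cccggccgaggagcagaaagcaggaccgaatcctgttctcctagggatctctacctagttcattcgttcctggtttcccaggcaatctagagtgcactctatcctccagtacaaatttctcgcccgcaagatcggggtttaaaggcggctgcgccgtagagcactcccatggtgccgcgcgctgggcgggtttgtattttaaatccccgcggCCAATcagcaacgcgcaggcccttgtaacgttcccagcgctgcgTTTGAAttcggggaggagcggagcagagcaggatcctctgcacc
Cdk1 held TTTGAA at -72 and -16 from the start and 3 copies of CCAAT, Ccnb1 held 2 copies of CCAAT and no TTTGAA, and Plk1 held 1 of each. In the Bub1 window neither was found. Of all 27457 promoters, 18.1% held TTTGAA and 37.7% held CCAAT, so CCAAT in particular is common, and a match shows only that the letters are there.

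Cdk1 stood at -1.39, -1.79, -2.41, -5.72 and 0.45 on day 7 replicates 10, 12, 13, 14 and 15, the order kept in all lists of day 7 values below, against 0.38, 0.88 and 1.56 at day 5 (lowest, median and highest of 12). Replicate 15 lay among the day 5 arrays and the other 4 day 7 arrays lay below all of them. The difference was -3.09 ± 0.61 (SE, adjusted p = 0.000858), a fold of 8.49. It held on leaving out any 1 of the 17 arrays, with differences between -3.74 and -2.20.

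Ccnb1 was at -1.53, -1.70, -0.72, -1.17 and 0.20 at day 7, against 0.16, 0.54 and 1.55 at day 5, a difference of -1.73 ± 0.43 (adjusted p = 0.00804). Bub1 was at -1.37, -1.33, -1.24, -1.38 and 0.20 at day 7, against -0.70, 0.80 and 1.72 at day 5, a difference of -1.83 ± 0.49 (adjusted p = 0.0140). Plk1 was at -1.10, -1.98, -0.89, -1.03 and 0.75 at day 7, against -0.11, 1.08 and 1.96 at day 5, a difference of -1.98 ± 0.55 (adjusted p = 0.0165). In these 3 genes, as in Cdk1, day 7 replicate 15 was the array nearest to the day 5 values. Bub1 did not pass without day 7 replicate 13 (adjusted p = 0.0514), and Plk1 did not without day 7 replicate 12 (0.0730) or 13 (0.0515). Without the 3 arrays with high brain scores Cdk1 still passed (adjusted p = 0.00129), while Ccnb1 (0.144), Bub1 (0.107) and Plk1 (0.191) did not.

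The proliferation antigen gene Mki67 had a difference of -1.09 (adjusted p = 0.079), the topoisomerase gene Top2a -1.28 (0.153) and the cyclin gene Ccna2 -1.40 (0.0835), and none of them passed. As the mean of its 2 probes Mki67 passed (-1.14, adjusted p = 0.0374). Rrm2, a subunit of ribonucleotide reductase, was the 1 list member with a positive difference, 0.93. Racgap1, which organises the midzone of the dividing spindle and was among the 12 largest decreases of called genes above the floor on all 17 arrays, was at -0.26, -0.86, -3.09, -4.28 and -2.07 at day 7, against -0.27, 1.18 and 1.95 at day 5. Its difference was -3.25 ± 0.75 (adjusted p = 0.00423). The mean of its 3 probes had a smaller difference of -1.38, which passed as well (adjusted p = 0.0314).

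**Figure D3:**
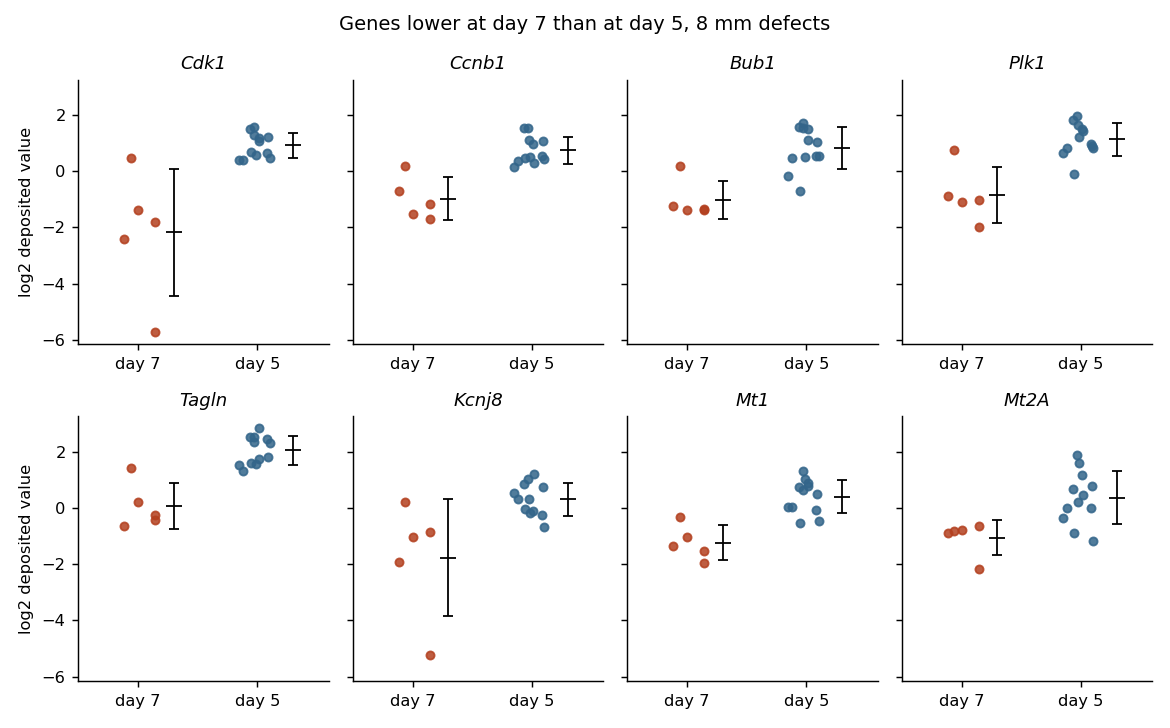
Points are arrays of 8 mm defects, day 7 left in red and day 5 right in blue, with the mean and SD beside them, for 4 cell division genes, 2 contractile and pericyte genes and 2 metallothioneins (log2 deposited value). For Cdk1 4 of the 5 day 7 arrays lie below all day 5 arrays, and for Ccnb1, Bub1 and Plk1 the highest day 7 value is that of replicate 15.

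Of 12 measured genes of contractile cells and pericytes, 2 fell, 0 rose and 11 had a negative difference, where 4.63% of all genes fell. The median of the list was -1.27 against -0.33 for all genes, and after centring -1.03 against -0.09. Tagln, an actin-binding protein of smooth muscle and myofibroblasts, was at 0.21, -0.44, -0.63, -0.25 and 1.40 at day 7, against 1.31, 2.05 and 2.82 at day 5. Replicate 15 alone reached the range of day 5. The difference was -1.98 ± 0.43 (adjusted p = 0.00253), a fold of 3.94, and it passed without any 1 array and without the arrays with high brain scores (adjusted p = 0.0281). Kcnj8, a potassium channel subunit of pericytes, had a difference of -2.08 ± 0.56 (adjusted p = 0.0141), but its day 7 values ran between -5.22 and 0.20, and without replicate 14, the lowest, it was -1.22 (adjusted p = 0.214). The proteoglycan gene Cspg4 of pericytes had every day 7 value, -1.99 to 0.03, below every day 5 value, 0.71 to 1.8. Its adjusted p was 0.0579, so it did not pass. The calponin gene Cnn1 had a difference of -2.58 and the pericyte receptor gene Pdgfrb one of -0.02, and neither passed.

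Among genes of the matrix, single members passed in both directions. Of 17 matricellular genes 2 rose and 2 fell, where 1.8% of all genes rose and 4.63% fell. Tnc, the tenascin of early wound matrix, was at -1.21, -1.43, -0.55, -1.17 and 0.30 at day 7, against -0.13, 1.04 and 2.34 at day 5, a difference of -1.93 ± 0.55 (adjusted p = 0.022). The other gene that fell is Tagln, which stands in this list too. Spon1, a secreted adhesion protein, rose by 1.31 ± 0.37 (adjusted p = 0.0194), and Ccn3, a secreted protein of the CCN family, rose by 1.36 ± 0.42 (adjusted p = 0.0339). Tnc was lost on leaving out day 7 replicate 10, 12, 13 or 14 (adjusted p up to 0.0687), Spon1 without day 7 replicate 13, 14 or 15 (up to 0.0737), and Ccn3 without day 5 replicate 11 or 12 or day 7 replicate 12, 13 or 14 (up to 0.117). As the mean of their 2 probes neither Tnc (-1.23, adjusted p = 0.101) nor Spon1 (0.71, adjusted p = 0.222) passed, and without the arrays with high brain scores neither Tnc (-1.59, adjusted p = 0.183) nor Ccn3 (1.54, adjusted p = 0.064) did. The fibroblast protein gene Postn (0.83, adjusted p = 0.301) and fibronectin, Fn1 (0.10, adjusted p = 0.928), did not pass.

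Timp3, an inhibitor of matrix proteases that binds to the matrix, was the 1 of 20 protease and inhibitor genes that passed. It was at 0.92, 0.57, 1.02, 0.85 and 0.94 at day 7, against -0.79, -0.35 and 0.37 at day 5. The ranges did not overlap, and the day 7 arrays lay close together. The difference was 1.12 ± 0.34 (adjusted p = 0.0312). It did not pass without day 7 replicate 10, 13, 14 or 15 (adjusted p up to 0.095) or without the arrays with high brain scores (0.0751). The collagenase gene Mmp13 had a difference of 0.26 (adjusted p = 0.85) and the gelatinase gene Mmp9 one of 1.10 (adjusted p = 0.178).

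Of 19 collagen genes, Col8a2, a chain of a network collagen, rose by 1.15 ± 0.35 (adjusted p = 0.031) and Col5a3, a minor fibrillar chain, fell by 2.78 ± 0.73 on the log2 scale (adjusted p = 0.0117). Col8a2 did not pass without day 7 replicate 12, 14 or 15 (adjusted p up to 0.135), nor as the mean of its 2 probes (0.165), nor without the arrays with high brain scores (0.057), and Col5a3 did not without day 7 replicate 15 (0.072). All 20 enzymes and chaperones of collagen had negative differences, with a median of -0.82 against -0.33 for all genes. That median was -0.40 without the arrays with high brain scores and -0.53 with the brain and muscle scores as covariates. Only Fkbp10, a chaperone of procollagen, fell (-2.08 ± 0.57, adjusted p = 0.0157). Without day 7 replicate 14, where Fkbp10 stood at -4.87, its difference was -1.20 (adjusted p = 0.233). The protein disulphide isomerase gene P4hb was below every day 5 value on all 5 day 7 arrays, at -1.01 to -0.14 against -0.04 to 0.63, and did not pass (-1.14, adjusted p = 0.0839). None of 10 small leucine-rich proteoglycans and none of 16 elastic fibre genes passed. Fbln1, a fibulin of the elastic fibre list, had every day 7 value above every day 5 value (1.31, adjusted p = 0.155).

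Genes of bone formation showed no common direction, with 13 positive and 14 negative differences among 27 and a median of -0.06, or 0.31 without the arrays with high brain scores. Enpp1, the enzyme that makes pyrophosphate, an inhibitor of mineral, was the 1 that passed. It was at -1.03, -1.57, -1.26, 0.53 and 0.99 at day 7, against 1.01, 1.46 and 2.14 at day 5. The groups did not overlap, although replicate 15 came close to the lowest day 5 array. The difference was -2.01 ± 0.40 (adjusted p = 0.000982), a fold of 4.03. It passed without any 1 array, and its adjusted p was 0.0542 without the arrays with high brain scores.

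The alkaline phosphatase gene Alpl, which removes pyrophosphate, was at 0.50, 2.59, 2.38, 2.17 and 2.81 at day 7, against -2.96, -0.36 and 2.41 at day 5. Bglap, the osteocalcin of mature osteoblasts, was at -1.59, 3.27, 3.76, 0.68 and 0.00 at day 7, against -4.51, -1.96 and 1.86 at day 5. Both were above the day 5 median on every day 7 array, with differences of 2.57 ± 0.95 and 2.68 ± 0.97, and neither passed (adjusted p = 0.0862 and 0.0797). After each array was centred both passed (adjusted p = 0.0309 and 0.035). The gene of the osteoblast transcription factor Runx2 had a difference of -2.99 (adjusted p = 0.125), with day 7 replicate 15 at the floor. As the mean of its 5 probes Runx2 had a difference of -1.45, which passed (adjusted p = 0.0398). The osteoblast factor gene Sp7 (0.10, adjusted p = 0.984), the matrix genes Spp1 (0.38) and Ibsp (0.91) and the osteocyte gene Dmp1 (0.42) did not pass.

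None of 14 osteoclast genes passed, and their median was 0.01 against -0.33 for all genes, or 0.54 without the arrays with high brain scores. After centring 3 passed as higher and 1 as lower, and after quantile normalization 4 and 1. Of all genes 4.62% and 8.08% did so after centring, and 7.16% and 8.21% after quantile normalization. Tnfrsf11b (adjusted p = 0.00647 and 0.00325) and Mmp9 (0.0351 and 0.0284) were higher under both scalings. Ctsk, the collagen-cleaving cathepsin of osteoclasts, had a difference of 0.81 (adjusted p = 0.226), Acp5, the tartrate-resistant acid phosphatase, 0.11 (0.908), and Tnfrsf11b, the decoy receptor osteoprotegerin, 1.18 (0.146). Of 19 cartilage genes 1 rose and 1 fell, where 1.8% of all genes rose and 4.63% fell. Ucma, a small secreted protein of cartilage and of osteoblasts, was at 0.22, 2.54, 2.31, 2.84 and 2.70 at day 7, against -2.08, -0.23 and 1.39 at day 5. Replicate 10 lay within the day 5 range and the other 4 above it. The rise was 2.27 ± 0.61 (adjusted p = 0.0140), a fold of 4.84, and without day 7 replicate 14 its adjusted p was 0.0587. Comp, the oligomeric protein of cartilage and tendon, had a difference of -3.84 ± 0.87 (adjusted p = 0.00327), with day 7 values between -6.64 and 0.58, 1 of them at the floor, against 0.12 as the day 5 median. The cartilage collagen gene Col2a1 (-0.37) and the factor gene Sox9 (1.82) did not pass.

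Of 3 metallothioneins measured, Mt1 and Mt2A fell, where 4.63% of all genes fell. Mt3, the form known from brain, did not pass (0.71, adjusted p = 0.599). Metallothioneins are small proteins that bind zinc and copper. Their genes are induced by metals, glucocorticoids and inflammation, by metals through metal response elements read by the factor MTF1. The promoters of Mt1 and Mt2A are printed for these elements, with the core TGCGCNC or TGCACNC in capitals on either strand, so that a copy on the other strand begins with G (RefSeq, GRCr8).
Mt1, chr19:10832926-10833225, minus strand: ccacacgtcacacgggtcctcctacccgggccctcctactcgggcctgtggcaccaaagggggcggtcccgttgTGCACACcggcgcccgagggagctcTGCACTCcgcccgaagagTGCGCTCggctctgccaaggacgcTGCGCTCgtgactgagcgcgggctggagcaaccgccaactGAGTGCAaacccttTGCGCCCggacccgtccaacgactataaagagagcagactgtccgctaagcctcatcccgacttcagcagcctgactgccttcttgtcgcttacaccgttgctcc
Mt2A, chr19:10838659-10838958, minus strand: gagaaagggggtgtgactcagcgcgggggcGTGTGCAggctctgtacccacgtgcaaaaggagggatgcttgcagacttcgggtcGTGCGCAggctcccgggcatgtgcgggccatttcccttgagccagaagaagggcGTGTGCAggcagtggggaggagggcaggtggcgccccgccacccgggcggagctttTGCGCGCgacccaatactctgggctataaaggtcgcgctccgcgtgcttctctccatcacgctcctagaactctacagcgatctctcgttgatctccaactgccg
Mt1 held 3 copies of each form and Mt2A 2 of each. TGCGCNC was in 15.0% and TGCACNC in 12.2% of all 27457 promoters.

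Mt1 was at -1.02, -1.96, -1.34, -1.55 and -0.32 at day 7, against -0.53, 0.56 and 1.32 at day 5, and again replicate 15 was the day 7 array nearest to day 5. The difference was -1.64 ± 0.35 (adjusted p = 0.00215), a fold of 3.12, and it passed without any 1 array and without the arrays with high brain scores (0.0232). Mt2A was at -0.80, -2.16, -0.89, -0.65 and -0.83 at day 7, against -1.19, 0.32 and 1.89 at day 5, a difference of -1.42 ± 0.43 (adjusted p = 0.0325). It did not pass without day 5 replicate 14, 18 or 22 or day 7 replicate 12, 13 or 14 (adjusted p up to 0.14), or without the arrays with high brain scores (-1.18, adjusted p = 0.212). The other 9 genes of this stress list did not pass either, among them Hmox1, the haem oxygenase (-1.05, adjusted p = 0.105).

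Of 18 genes of hypoxia and glycolysis, 3 fell and 1 rose, where 4.63% of all genes fell and 1.8% rose. In this list 16 genes had negative differences, and the list median was -0.66 against -0.33 for all genes. It was -0.42 against -0.09 after centring and -0.34 against -0.05 after quantile normalization. Pgk1, a glycolytic kinase, was at -0.95, -0.58, -0.93, -0.76 and 0.03 at day 7, against 0.00, 0.57 and 1.44 at day 5 (-1.25 ± 0.36, adjusted p = 0.0237). The hypoxia-induced gene Ankrd37 fell by 1.31 ± 0.37 on the log2 scale (adjusted p = 0.0215), with every day 7 value, -1.25 to -0.27, below every day 5 value, -0.18 to 1.21. The aldolase gene Aldoa fell too (-1.71 ± 0.42, adjusted p = 0.0059), but its day 7 values were -0.16, 0.13, -3.86, 0.05 and -2.69, so that 3 arrays lay within the day 5 range of -0.17 to 1.30. Pfkp, the platelet form of phosphofructokinase, which is also the main form in brain, rose by 1.17 ± 0.36 (adjusted p = 0.0365) and was highest on replicates 10 and 12, the arrays with high brain scores. Without those arrays it had a difference of 0.69 (adjusted p = 0.418).

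Pgk1 did not pass without day 7 replicate 10, 13 or 14 (adjusted p up to 0.0858), Ankrd37 without 10 or 13 (up to 0.088), Aldoa without 13 (0.147) and Pfkp without 10, 12 or 15 or day 5 replicate 11, 12 or 16 (up to 0.179). Neither Pgk1 (adjusted p = 0.114) nor Ankrd37 (0.0754) passed without the arrays with high brain scores. The lactate dehydrogenase gene Ldha was just outside the threshold (-1.19, adjusted p = 0.051), and the vessel growth factor gene Vegfa had a difference of -0.58 (adjusted p = 0.381). None of 15 endothelial genes passed. Kdr, the receptor for that factor, had a difference of -0.82 (adjusted p = 0.176) and Pecam1, an adhesion protein of endothelium, 1.24 (0.137).

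Immune genes gave few calls. Of 20 macrophage genes, Folr2, the folate receptor of tissue macrophages, was at -1.17, -1.19, -0.42, -0.74 and -0.27 at day 7, against -0.13, 0.50 and 0.68 at day 5, with no overlap. Its difference of -1.16 ± 0.37 only just passed (adjusted p = 0.0443), and its call was lost on leaving out any one of 12 arrays, among them day 7 replicates 10, 12, 13 and 14 (adjusted p up to 0.118), and without the arrays with high brain scores (-0.91, adjusted p = 0.282). The macrophage genes Cd68 (-0.64) and Trem2 (-0.73) did not pass, and those for Apoe and Lyz2 followed the shared profile of abundant genes on 17 and 16 arrays. None of 16 neutrophil, 22 cytokine and chemokine, 17 interferon response, 8 MHC class II and 8 mast cell genes passed. The cytokine list had a median of -0.70 against -0.33 for all genes. The list median was -0.15 both without the arrays with high brain scores and with the brain and muscle scores as covariates. It held the monocyte chemokine gene Ccl2 at -1.21 (adjusted p = 0.106) and Il1b, the interleukin 1 beta gene, at 0.24 (0.812).

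Prf1, the perforin of cytotoxic lymphocytes, was the 1 of 16 T and natural killer cell genes that passed. It was at -0.41, -0.28, 1.6, 0.86 and 1.79 at day 7, against -1.48, -0.80 and 0.43 at day 5. Replicates 13, 14 and 15 lay above all day 5 arrays, while 10 and 12 lay among them. The rise was 1.46 ± 0.40 (adjusted p = 0.016), which was lost without day 7 replicate 13 or 15 (up to 0.1) and was 2.15 without the arrays with high brain scores (adjusted p = 0.00174). The T cell receptor complex gene Cd3d had a difference of 0.96 (adjusted p = 0.191). Cd79b of B cells fell by 1.81 ± 0.59 on the log2 scale (adjusted p = 0.0487), with day 7 values spread between -6.64 and 0.68, and did not pass after centring (0.104), after quantile normalization (-0.40, adjusted p = 0.738) or on leaving out any one of 12 arrays. Cfb, the complement factor B gene, fell by 2.58 ± 0.71 on the log2 scale (adjusted p = 0.0164) through replicates 14 and 15, at -6.64 and -5.63. It was lost without either (adjusted p up to 0.183).

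All 14 brain genes had positive differences, with a median of 2.01. Without the 3 arrays with high brain scores that median was 0.27. One of the 14 passed, Aqp4, the water channel of astrocytes, which was at 5.69, 4.71, 2.73, 0.70 and 2.62 at day 7. At day 5 it was at the floor on 10 of 12 arrays and reached 1.81. It also passed without those 3 arrays (adjusted p = 0.00561). The mean of its 4 probes gave 4.14 (adjusted p = 0.0124), against 8.63 for the probe used, a value that depends on where the floor lies. Mbp, myelin basic protein, was at 6.28, 4.96, 1.47, 0.65 and 0.48 at day 7, against -1.90, -0.13 and 3.38 at day 5 (2.73, adjusted p = 0.112). For skeletal muscle the list median was -1.43, with 19 of 20 negative and 0 passing, and it was 0.30 with the brain and muscle scores, the second made of these genes, as covariates. Their list score ran between -2.01 and 2.12 at day 7 and between -1.44 and 5.20 at day 5. With the brain and muscle scores as covariates 606 of the 1027 called genes still passed. Ccnb1, Bub1, Kcnj8, Fkbp10, Pgk1 and Mt2A were among those that did not, and beyond these values the part of brain or muscle RNA in the other results was not tested.

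Meningeal genes, which mark the dura and the membranes below it, had a median of 1.29, with 11 of 14 positive, 1.5 without the arrays with high brain scores and 0.48 with the brain and muscle scores as covariates. Igf2, insulin-like growth factor 2, a growth factor of the meninges and of growing tissue, rose. It was at 2.13, 1.52, 1.16, 1.14 and 2.23 at day 7, against -3.59, -1.22 and 1.19 at day 5. Every day 7 value was above or close to the highest day 5 value, and the day 7 arrays differed little among themselves. The difference was 2.76 ± 0.72 (adjusted p = 0.0106), a fold of 6.78, and it passed without any 1 array, without the arrays with high brain scores (0.0379) and with the brain and muscle scores as covariates (0.0254). Foxc2, a transcription factor of mesenchyme and meninges, had every day 7 value above every day 5 value (1.95, adjusted p = 0.0639), and passed as the mean of its 2 probes (1.55, adjusted p = 0.0116). The retinoic acid-making enzyme gene Aldh1a2 (3.71, adjusted p = 0.0752) and the prostaglandin D synthase gene Ptgds (4.20, adjusted p = 0.0604) missed the threshold.

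Igfbp5, which binds insulin-like growth factors and is made by osteoblasts and fibroblasts, was at 0.18, 0.56, 1.43, 1.42 and 0.35 at day 7, against -2.16, -0.95 and 0.40 at day 5, a rise of 1.58 ± 0.44 (adjusted p = 0.0193). It was lost without day 7 replicate 13 or 14 (adjusted p up to 0.0908), and the mean of its 2 probes gave 0.65 (adjusted p = 0.433). Igfbp2, another binding protein, had a difference of 2.69 (adjusted p = 0.0987). The other 15 measured genes of the IGF and FGF list did not pass.

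**Figure D4:**
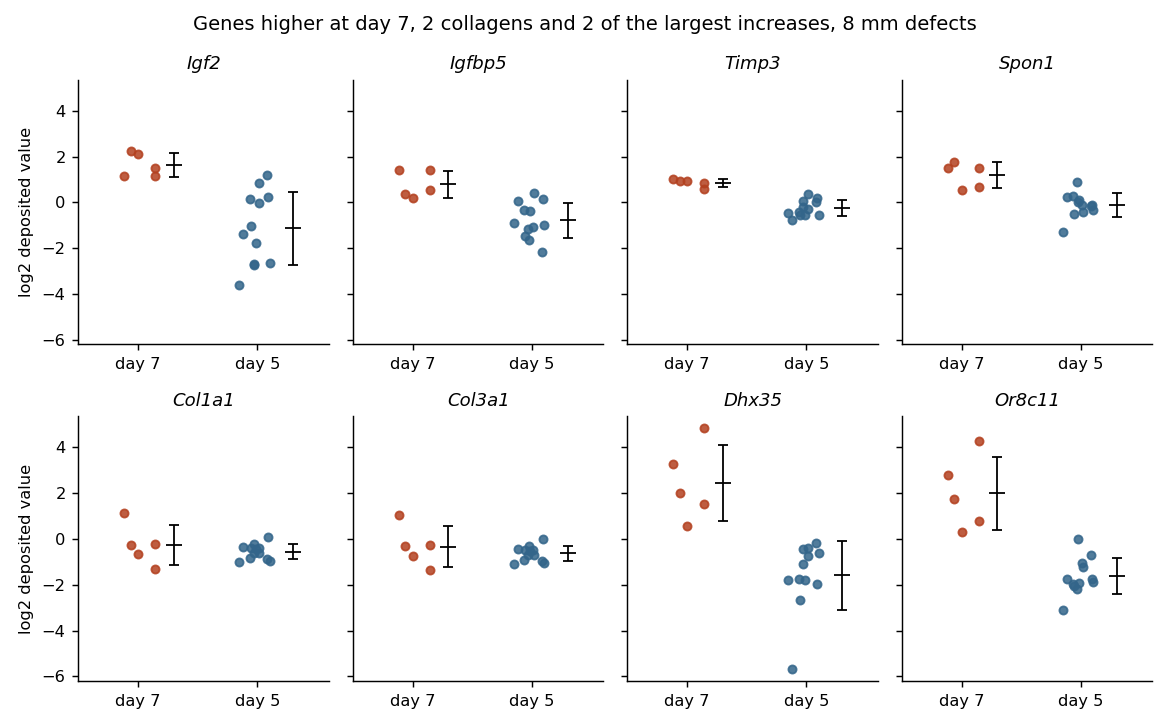
Points are arrays of 8 mm defects, day 7 left in red and day 5 right in blue, with the mean and SD beside them, for Igf2, Igfbp5, Timp3 and Spon1, for the collagens Col1a1 and Col3a1 and for Dhx35 and Or8c11 (log2 deposited value). The day 7 points of Igf2 and Timp3 lie close together, those of Dhx35 run between 0.56 and 4.83, and the 2 collagens show the same pattern of points.

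The lists of Wnt signalling and of BMP and TGF-beta signalling gave 3 calls, all lower, where 4.63% of all genes fell. The 2 calls of the IGF and FGF list, given above, were both higher. Sfrp1, a secreted antagonist of Wnt ligands, was at -1.51, -0.85, -0.81, -0.80 and 0.52 at day 7, against 0.23, 0.98 and 1.92 at day 5. Replicate 15 lay within the day 5 range and the other 4 below it. The difference was -1.76 ± 0.34 (adjusted p = 0.000525), a fold of 3.38, which passed without any 1 array and without the arrays with high brain scores (0.0278). Among 25 BMP and TGF-beta genes, Chrdl2, an antagonist of BMP ligands, was at -1.71, -4.23, -0.82, -6.64 and 1.01 at day 7, against 1.54, 2.17 and 2.67 at day 5, with no overlap (-4.59 ± 1.30, adjusted p = 0.0199). Its size depends on the floor value of replicate 14, and it was lost without day 7 replicate 12 or 14 (adjusted p up to 0.135) and without the arrays with high brain scores (0.107). Bmpr1b, a receptor of BMP ligands, fell (adjusted p = 0.0427) with 2 day 7 arrays at the floor and was lost on leaving out any one of 10 arrays. The ligand gene Bmp6 had every day 7 value above every day 5 value, at 2.15 to 3.51 against -1.06 to 1.69, and did not pass (2.44, adjusted p = 0.103), and Bmp2 had a difference of 0.22 (0.954).

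Of the called genes, 747 were above the floor on all 17 arrays, 232 higher and 515 lower. The 12 largest increases among them were those of Dhx35, Or8c11, Vom2r47, Hbg1, Tshb, Or2t48, RGD1306556, Prp15, Acsbg1, Serpina4, Apod and Vangl2. They include olfactory and vomeronasal receptor genes, a globin gene and the pituitary hormone gene Tshb, which are not known for a role in bone repair. Dhx35, an RNA helicase gene, was at 0.56, 1.53, 3.27, 4.83 and 2.02 at day 7, against -5.67, -1.41 and -0.17 at day 5, with no overlap (4.03 ± 0.77, adjusted p = 0.000472). The olfactory receptor gene Or8c11 was at 0.32, 0.80, 2.81, 4.30 and 1.75 at day 7, against -3.09, -1.81 and 0.00 at day 5 (3.62 ± 0.68, adjusted p = 0.000396). Both genes have the same order of the 5 day 7 arrays, with replicates 14 and 13 above 15, and 15 above 10 and 12.

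That order was found in 147 of the 287 genes called higher (51.2%), in 1 of the 740 called lower and in 7.76% of all genes. The reverse order was not counted, so these counts do not say how many lower genes have the reverse. Racgap1, which was called lower, does have it. The medians of 1094 olfactory receptor genes on the arrays followed the order of Dhx35 and Or8c11 as well. They were -0.63, -1.0, 0.47, 0.85 and -0.14 at day 7, against -2.93, -0.32 and 0.27 at day 5. Of these receptors 46 were called higher (4.20%, against 1.8% of all genes) and 5 lower. Bone tissue is not known to express these receptors, and the reason for the shared order was not tested. Among list members that passed, Pck1 and Cox6a2 have the order too. Pck1, an enzyme of glucose and glycerol synthesis in the adipocyte list, was at -0.69, 0.11, 2.32, 3.58 and 1.11 at day 7, against -1.66, -0.99 and 0.32 at day 5 (2.16 ± 0.47, adjusted p = 0.00253). It was the 1 of 10 adipocyte genes that passed, 9 of the 10 had negative differences, and the mean of its 2 probes gave 0.80 (adjusted p = 0.559). Cox6a2, the muscle form of a cytochrome oxidase subunit, rose by 1.94 ± 0.55 (adjusted p = 0.0201) and was lost without day 7 replicate 13 or 14 (adjusted p up to 0.145). It was the 1 of 18 respiratory chain genes that passed, and 15 of the 18 had negative differences. The order of Dhx35 and Or8c11 is not found in Igf2, Timp3, Spon1, Ccn3, Ucma, Igfbp5 or Prf1.

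Apod, a lipocalin of fibroblasts and of myelinating and meningeal cells, was at 4.79, 2.60, 0.74, 1.90 and 4.76 at day 7, against -2.89, -0.57 and 3.04 at day 5 (3.09 ± 0.69, adjusted p = 0.00322). Without the arrays with high brain scores it was 2.89 (adjusted p = 0.0214). Acsbg1, an acyl-CoA synthetase gene of brain and steroid-making tissue, rose by 3.22 ± 0.86 (adjusted p = 0.0134) and was highest on replicates 10 and 12, at 3.81 and 4.36. It was lost without either of them (adjusted p up to 0.0746) and without the arrays with high brain scores (0.178). Vom2r47, RGD1306556, Prp15 and Vangl2 were lost without day 7 replicate 13 or 14, and the mean of the 2 probes of RGD1306556 gave 0.09 (adjusted p = 0.968).

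The 12 largest decreases above the floor were those of Tmem223, P2rx7, Hrct1, Racgap1, Hbs1l, Gdf15, Traip, Cdk1, Pdxk, Hdac10, Ccdc93 and Calu. Tmem223, a membrane protein of mitochondria, was at -0.80, -0.45, -6.50, -2.77 and -4.05 at day 7, against -0.37, 0.51 and 1.26 at day 5 (-3.43 ± 0.55, adjusted p = 4.04e-05). Calu, a calcium-binding protein of the secretory pathway, was at -1.15, -0.86, -2.35, -3.06 and -4.98 at day 7, against -0.19, 0.59 and 0.98 at day 5 (-3.01 ± 0.57, adjusted p = 0.000412). Neither overlapped between the days, and both passed without any 1 array. In both, replicates 10 and 12 lay nearest to day 5 and the other 3 far below.

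P2rx7, the ATP-gated channel that releases interleukin 1 from macrophages, was at -0.95, -2.10, -4.80, -2.66 and -2.25 at day 7, against 0.15, 0.74 and 2.21 at day 5, with no overlap (-3.36 ± 0.98, adjusted p = 0.025). It was lost without day 7 replicate 13 or 14 (adjusted p up to 0.139). Gdf15, a stress-induced cytokine, was at -1.68, -2.59, 0.87, -1.68 and -1.58 at day 7, against 0.57, 1.69 and 3.56 at day 5 (-3.12 ± 0.96, adjusted p = 0.033). It was lost without day 7 replicate 10, 12, 14 or 15 or day 5 replicate 14 (adjusted p up to 0.0977) and without the arrays with high brain scores (0.216). Hbs1l was lost without day 7 replicate 14, Hdac10 without 13, and Traip and Pdxk without 10 or 14, while Racgap1 and Ccdc93 passed without any 1 array. Traip (adjusted p = 0.165) and Pdxk (0.0632) did not pass without the arrays with high brain scores.

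Another 280 called genes had a value at the floor on at least 1 of the 17 arrays. Arhgap4, a signalling protein of blood cells, was at the floor on all 5 day 7 arrays and at -2.11, 1.77 and 4.28 at day 5 (adjusted p = 0.0027). Zcchc3 was at the floor on 4 and at -6.26 on replicate 12, against -1.31, 0.80 and 2.68 at day 5 (adjusted p = 0.000131). Neither has a measured level at day 7, or only 1, so no fold is given. Batf2 and Or12j2b, the other large decreases of this kind, were also at the floor on 4 day 7 arrays. In the other direction Zfp36, which speeds decay of cytokine mRNA, was at 2.87, 0.28, 2.77, 0.94 and 3.16 at day 7 and at the floor on 10 of 12 day 5 arrays (adjusted p = 0.015). It was lost without day 7 replicate 13, as were Foxa2 and Vom1r103, and Vom1r103 was lost without replicate 14 as well. Zfp36 (adjusted p = 0.0589), Foxa2 (0.0609) and Or12j2b (0.0856) did not pass without the arrays with high brain scores.

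Between the same days, 436 genes passed in 4 mm defects (2.73%), 266 higher (1.67%) and 170 lower (1.06%). The 2 sizes share no array, but rat numbers recur between them. The labels do not say what a shared number means, and the main fit did not use the numbers. Of the calls, 82 passed in both sizes with the same direction, which is 7.98% of the 8 mm calls and 18.8% of the 4 mm calls, and 1 passed in opposite directions. Whether or not they passed in 4 mm defects, 808 of the 1027 genes called in 8 mm defects had the same direction there. These were 261 of the 287 higher and 547 of the 740 lower genes, and the same share over all genes is not given here. Mt1 fell in both (-1.64 in 8 mm and -1.39 in 4 mm defects, 4 mm adjusted p = 0.0181), as did Mt2A (-1.42 and -2.42, 4 mm adjusted p = 0.000612) and Sfrp1 (-1.76 and -1.15, 0.0483). Igf2 rose in both (2.76 and 2.59, 4 mm adjusted p = 0.031), as did Ucma (2.27 and 2.61, 0.01), Spon1 (1.31 and 1.77, 0.00363), Igfbp5 (1.58 and 1.68, 0.0234) and Col8a2 (1.15 and 1.52, 0.00911).

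The cell division genes did not pass in 4 mm defects, where their median difference was 0.12 against 0.11 for all genes. In 8 mm defects it was -1.20 against -0.33 for all genes. Cdk1 changed by -3.09 in 8 mm and by -0.32 in 4 mm defects, and the difference between these changes was -2.77 ± 0.87 (adjusted p = 0.241), so it is not shown to differ between the sizes. The difference between sizes passed for 3 genes (0.0188%), and 1775 genes had an unadjusted p under 0.05. They were Hrct1 (-3.21 ± 0.66), Usp47 (-3.02 ± 0.60) and Rfesd (-3.69 ± 0.77), each with an adjusted p of 0.0418. Hrct1, a small histidine-rich membrane protein, was at -1.29, -0.45, -2.27, -1.85 and -6.63 at day 7 in 8 mm defects, against 0.20, 0.72 and 1.59 at day 5, and changed by -0.07 in 4 mm defects. Usp47, a ubiquitin protease gene, fell in 8 mm defects (-1.46, adjusted p = 0.024) and rose in 4 mm defects (1.56, adjusted p = 0.0266). Its fall in 8 mm defects did not pass without day 7 replicate 15 (-0.69, adjusted p = 0.322) or 13 (-1.27, 0.118). Nor did it pass with quantile normalization (-0.85, 0.192), array weights (-0.86, 0.0883), only the groups compared (0.116) or values under 0.25 raised (-0.94, 0.0768). No gene passed without day 7 replicate 13 or without any one of day 5 replicates 14, 15, 18, 19, 20 and 21, while 71 passed without day 7 replicate 12. The other settings gave between 0 and 771.

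The levels of the same genes at the other days of the 8 mm defects place days 5 and 7 in the course of healing. The mean level of Cdk1 was -1.24 ± 1.54 on day 1 (SD, n = 5), 0.62 ± 1.11 on day 3 (n = 11) and 0.91 ± 0.43 on day 5 (n = 12). It was -2.17 ± 2.25 on day 7 (n = 5), -2.50 ± 2.27 on day 10, -2.13 ± 0.83 on day 14 and -2.73 ± 0.51 on day 21 (n = 6 each). Its day 7 level lay among those of the later days. Tagln likewise had its highest mean on day 5, 2.04 ± 0.50, followed by 0.06 ± 0.81 on day 7, -0.01 ± 0.61 on day 10 and -1.03 ± 0.23 on day 21. Mt1 was highest at day 1, at 2.75 ± 0.83, and at day 7 stood at -1.24 ± 0.62, near its mean of -1.11 ± 0.38 at day 21. Igf2 took the opposite course, with means of -3.96 ± 1.89 on day 1, -1.12 ± 1.59 on day 5, 1.64 ± 0.52 on day 7 and 2.98 ± 0.92 on day 10. These later and earlier means are given as a description, with no test between them.

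**Figure D5:**
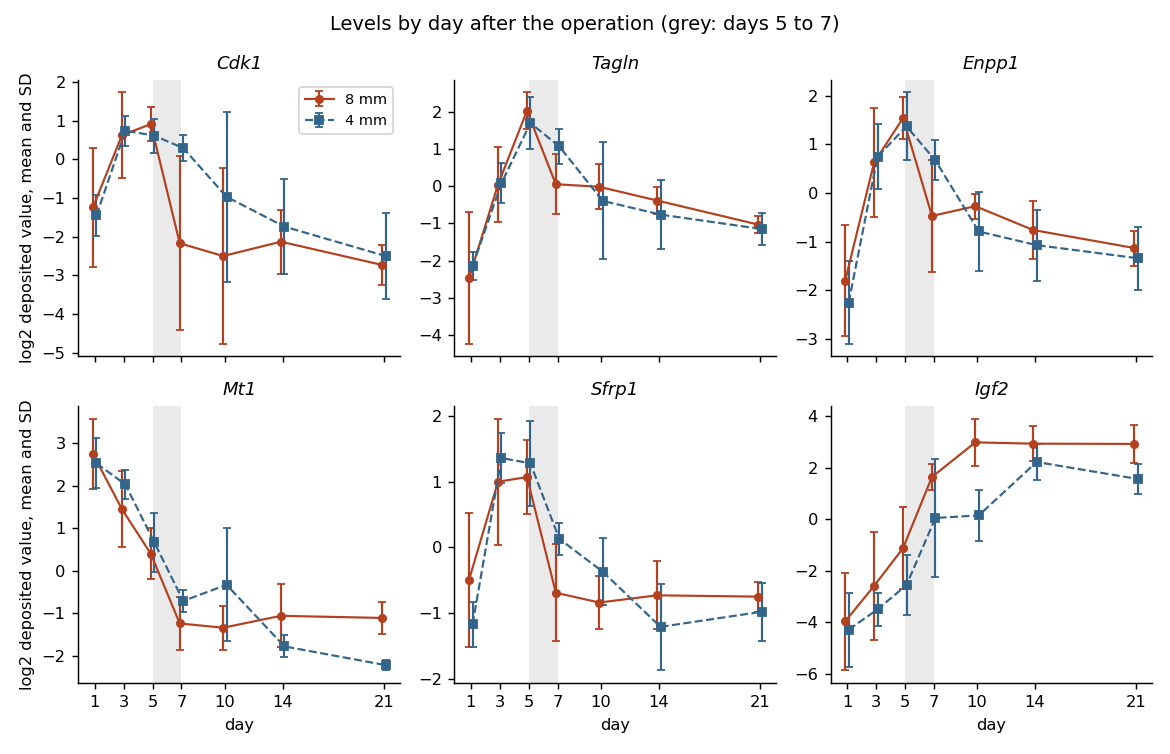
Points and bars give the mean and SD of the log2 deposited value by day in 8 mm defects (red, solid) and 4 mm defects (blue, dashed) for 6 genes, with days 5 to 7 shaded. Cdk1, Tagln, Enpp1 and Sfrp1 have their highest 8 mm mean at day 5, Mt1 at day 1, and the 8 mm mean of Igf2 is higher at day 7 than at days 1, 3 and 5.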

How the data were processed

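Total RNA of each defect was labelled with Cy3 and hybridised to Agilent rat whole genome arrays, per the labels' protocols. The deposited values are linear ratios on 41090 probes, per the series table itself: 87.8% of probes had a median of 1 over the 93 arrays, and 13.4% of values were 0.01, the lowest. How the authors scanned, corrected and scaled the arrays before the ratios were deposited is not given in the sources used here. The plan assumed values on a log scale, so log2 of the deposited ratios was taken.

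Of the probes, 20932 had 1 gene symbol and 20158 were unnamed. Names were updated through accessions in RefSeq's GRCr8 table (17424 probes matched, 2316 symbols changed). For 3880 genes with several probes, the probe with the largest interquartile range was used. A linear model (limma 3.58.1 under R 4.3.3, moderated by eBayes) was fitted to 15975 genes with a mean for each of 14 groups of defect size and day, and Benjamini-Hochberg adjustment at 0.05. The procedure was tested on simulated normal values with the group means and spreads of these data and changes added to some genes. It recovered 4.5% of log2 changes of 1, 43.3% of changes of 2 and 43.9% of changes of 3. Of the simulated calls 1.6% were false. Both days had the same spread in the simulation, so these rates do not cover genes whose spread differed between the days. Many real changes of these sizes would thus not pass. Single values per array were compared by two-sided exact permutation tests. No 2 of the 17 arrays correlated above 0.527 over probes, so none was treated as a repeat.

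Named genes were the 12 largest increases and 12 largest decreases among called genes above the floor on all 17 arrays, the 4 largest of each direction with floor values, up to 4 members of each list by smallest p, and the 5 genes with the smallest p for the difference between sizes. Other list members were described for their known roles. The comparison, its lists and its gene rules were chosen with earlier results of these data known. The scores as covariates, the fits without the 3 arrays with brain scores above 2, the shared profile, the order of arrays and the gene families outside the lists were chosen after seeing the data. Values of 4 mm defects come from the same fit.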

Additional observations from a re-analysis of the deposited data

Results flagged for a closer look

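Among 226 sets of 5 day 7 values tested for a single array far from the other 4 (Dixon's test), 19 had one. Chance gives about 1 in 20 for untied values from a normal distribution. A set with 4 arrays at the floor is flagged whatever the other value is, as in Or12j2b, Zcchc3, Batf2, Ptgs2 and Dsg1. The 19 can thus not be set directly against that rate. Replicate 13 accounted for 9 of the 19. It had 17.1% of values at the floor and an interferon response score of 1.17, Foxa2 at 4.22, Marco at 2.21, Ptgs2 at 2.37, Hoxb7 at 1.58, P4hb at -0.14, Rgs5 at -2.76 and Krt15 at the floor, -6.64. Replicate 14 had Or12j2b at -1.76, Batf2 at -3.89 and Dsg1 at -0.64. Replicate 15 had Bub1 at 0.20, Top2a at 0.65 and Cspg4 at -1.99. Replicate 12 had Zcchc3 at -6.26 and Mt2A at -2.16, and replicate 10 had Alpl at 0.50 and Ucma at 0.22.

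For 3 genes the change between the days differed between the sizes by the test of the difference itself (limma, adjusted p = 0.0418 each). The 8 mm change minus the 4 mm change was -3.21 for Hrct1, -3.02 for Usp47 and -3.69 for Rfesd. Hoxb7, next to them, had a difference of 4.70 ± 1.04 (SE, adjusted p = 0.0846).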

How the results depend on the processing

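None of the 67 named genes that passed changed direction under any setting that included it. All 1027 called genes kept their direction under centring, under quantile normalization, with the scores as covariates and without the 3 arrays with high brain scores. For the other settings the directions of all 1027 are not given here. The count of 1027 called genes became 2455 with quantile normalization, 2029 with centred arrays, 2750 with array weights, 2082 with only the groups compared, 2000 with values under 0.25 raised, 277 without the less variable genes, and 1755 without the 3 arrays with high brain scores plus centring. The 34 called list members became 97, 80, 114, 82, 87, 17 and 64 in that order. The 3 genes that differed between sizes became 58, 32, 771, 341, 0, 0 and 364 in that order, 29 with only genes above the floor on all arrays, 0 with the mean of probes, 23 with the scores as covariates and 180 without the 3 arrays. Leaving out 1 array gave 421 to 1028 called genes, 18 to 36 list members and 0 to 71 genes between sizes. The same gave differences of 0.36 to 2.13 percentage points in the share at the floor and -0.35 to -0.19 in array level.

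Rat numbers 12, 14 and 15 occur at both days, but same-numbered arrays did not deviate together (correlations -0.032, -0.011 and 0.079). With the rat number as a replicate block 868 genes, 29 list members and 2 genes between sizes were called, and 48 of 67 named calls were kept. Centring kept 66 of the 67, quantile normalization 63, leaving out day 7 replicate 13 kept 40 and replicate 14 kept 41. The causes were not tested. Values at the floor have only a bound, and 5 arrays at day 7 limit the precision of every difference.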

Other observations

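Genes of basic cell machinery, grouped after their values had been seen and so given with no test, had mostly negative differences at day 7 in 8 mm defects. Of 69 mitochondrial ribosomal protein genes 12 were called lower (17.4%, against 4.63% of all genes) and 1 higher, with a median difference of -0.77, which was -0.53 after centring and -0.61 without the arrays with high brain scores. Of 28 RNA polymerase subunit genes 7 were called lower (25%) and 1 higher, with a median of -0.81, and of 40 proteasome subunit genes 4 were lower and 1 higher, with a median of -0.67. The medians in 4 mm defects were -0.03 for mitochondrial ribosomal proteins, 0.22 for RNA polymerase subunits and 0.08 for proteasome subunits. The median of all genes was -0.33 in 8 mm and 0.11 in 4 mm defects. For these families the difference between sizes was not tested. On the day 7 arrays the median level of mitochondrial ribosomal protein genes was -0.66, -0.24, -0.69, -0.40 and 0.23, against -0.08, 0.32 and 0.99 at day 5, so that replicate 15 lay within the day 5 range and the other 4 below it. Cytosolic ribosomal protein genes, 15 of which follow the shared profile, had a median of 0.15, with 1 of 74 called higher and 4 lower.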
